A study of Mus musculus with 14 samples.

Results

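Antigen presentation genes of the mouse major histocompatibility complex (MHC) were followed in liver RNA. The members were all rows of the count table whose symbol begins with H2-, the mouse prefix for this complex, together with Cd74, B2m, Tap1, Tap2, Tapbp, Ciita, Nlrc5, Psmb8, Psmb9 and Psmb10. The rule gave 55 genes of the 45706 in the table, 45 by the prefix and 10 by name. Of these, 42 belong to the class I pathway and 13 to the class II pathway. RNA of liver came from male C57BL6/J mice that were 8 weeks old at the start, in 14 libraries of 4 groups. The MASH OAL group (3 libraries, replicates 1, 2 and 4) ate a diet for 16 weeks that induces MASH, the inflamed form of fatty liver tied to metabolic disease, and was then treated with C18:1-leucine (OAL) for 6 more weeks on that diet. C18:1-leucine is named as the fatty acid joined to the amino acid leucine. The MASH OA group (4 libraries) had the same diet and times with C18:1 (OA), the fatty acid alone. The MASH group (3 libraries, replicates 2, 3 and 4) had the same diet and times without either compound in its title. The CD group (4 libraries) is taken as the standard chow arm, with 16 weeks of diet given and no treatment time. Doses, the route, whether the MASH mice received the vehicle, and whether the CD mice were kept for the 6 more weeks are unstated in the sources used here. If they were not kept, age and time on diet differ in every comparison against CD. The labels do not say that each library came from a separate mouse, so p-values measure only the spread between these libraries.

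MHC class I molecules sit on nearly every nucleated cell and show peptides from the cell's own proteins to CD8 T cells. Their peptides are cut by the proteasome, carried into the endoplasmic reticulum by the Tap1-Tap2 transporter and loaded onto a heavy chain that is paired with beta-2 microglobulin. MHC class II molecules show peptides from engulfed material to CD4 T cells and are normally made by macrophages, dendritic cells and B cells, so that in liver they mark these cells far more than hepatocytes. Ciita switches on the class II genes, and Nlrc5, a relative of Ciita, does the same for class I genes.

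The libraries held 33821874 to 51107248 counts each. Two-sided tests came from a single edgeR quasi-likelihood fit to the rounded counts of all 14 libraries, with p adjusted by Benjamini and Hochberg over 15674 tested genes and a threshold of 0.05. Values are CPM, counts scaled to a common library size by TMM, which is edgeR's correction for differences in composition, and log2 fold changes are given with their standard error (SE) or 95% interval. For 2 libraries the treatment tag goes against the title: MASH OA replicate 1 is tagged as diet only, and MASH OAL replicate 1 is tagged as OA. Groups follow the titles here, and the counts of members and of list genes called in MASH OAL against MASH OA are also given with groups from the tags and without both libraries. Hepatocyte transcripts (Alb, Ttr, Apoa1, Serpina1c, Hnf4a and Cps1) were present in each library, at a summed 56633 to 81072 CPM in MASH OAL livers, 40115 to 49962 CPM in MASH OA livers, 50538 to 57347 CPM in MASH livers and 79322 to 100239 CPM in CD livers. Exocrine pancreas transcripts reached a summed 422 CPM in MASH OAL replicate 2 and 109 CPM in CD replicate 2, where the remaining 12 libraries had 3.50 to 7.56 CPM. Neutrophil transcripts reached a summed 43.6 CPM in MASH OAL replicate 1, and in the remaining 13 libraries 3.30 to 23.9 CPM.

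In the GENCODE M21 annotation of GRCm38, 50 of the 55 members lie on mouse chromosome 17. The class II region, from H2-Oa to H2-Eb2 (chr17:34092340-34341412), spans 249.1 kb and holds 13 members. Psmb9, Tap1, Psmb8 and Tap2, which serve class I, lie inside it in a 34.3 kb stretch (chr17:34181987-34216321). Enough counts for the test were found for 36 members, 25 of class I and 11 of class II. In all libraries together 14 members had no count at all, which over 595891836 counts allows up to 0.00503 CPM, in counting error only. These include 6 genes of the H2-M10 cluster, H2-T3, the pseudogenes H2-Pa and H2-Q3, and H2-Ea. The H2-Ea gene encodes the alpha chain of I-E and is known to be silent in C57BL/6 mice. H2-M5, H2-M6-ps, H2-T25, H2-T26 and H2-T27 had 3 to 45 counts over all libraries and were not tested.

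RPKM is the CPM divided by the kilobases of all annotated exons of a gene, merged over its transcripts. By this measure B2m, H2-K1, H2-Q10 and H2-D1 of class I stood above every class II gene in each group, by group mean. Merged exons can be longer than the transcript that is made. The length used was 4348 bases for H2-Q10, 2938 for H2-K1 and 860 for B2m. By mean CPM, H2-Q10 and H2-K1 stood above B2m in each group, so the ranks by RPKM depend on these lengths. B2m, the shared light chain, was the highest member by RPKM in each group, with 1014 ± 28.8 RPKM in MASH OAL livers, 1090 ± 147 RPKM in MASH OA livers, 1022 ± 55.6 RPKM in MASH livers and 940 ± 106 RPKM in CD livers (SD, n = 3, 4, 3 and 4). H2-K1, a classical heavy chain, averaged 516 ± 44.0, 548 ± 65.1, 527 ± 42.5 and 490 ± 31.2 RPKM in the same order of groups. H2-Q10, which encodes a class I molecule that the liver secretes, averaged 505 ± 14.6, 460 ± 61.0, 520 ± 12.2 and 518 ± 48.6 RPKM in that order. The levels of H2-K1 and H2-Q10 overlapped between libraries in each group, so their order is not set. Of the class II side, Cd74 was highest, at 81.9 ± 17.3 RPKM in MASH OAL livers, 236 ± 97.5 RPKM in MASH OA livers, 149 ± 21.3 RPKM in MASH livers and 40.8 ± 8.0 RPKM in CD livers. Ciita was among the lowest of the tested members, at 0.467 ± 0.0322 RPKM in MASH OAL livers, 1.62 ± 0.577 RPKM in MASH OA livers, 0.878 ± 0.244 RPKM in MASH livers and 0.160 ± 0.0579 RPKM in CD livers.

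The first comparison, MASH against CD, sets the MASH diet against the chow arm, where age and time on diet may differ too. Class II genes rose nearly as a block. B2m, H2-K1 and H2-Q10, the most abundant class I genes, did not pass the test, while the peptide transporter, most immunoproteasome subunits and most scarcer class I heavy chains rose. Of the 36 tested members 27 were higher in MASH livers and 0 lower, beside 20.4% of all tested genes called higher, 15.1% called lower and 35.5% in either direction. For 28 members every MASH library lay above every CD library, beside 22.5% of all tested genes. The median log2 fold change was 2.11 over the 11 tested class II members and 0.72 over the 25 tested class I members, beside 0.01 over all tested genes. Of class II, 10 of 11 tested members rose, and of class I 17 of 25. In bulk liver RNA, more cells that express a gene and more RNA per cell cannot be told apart.

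The class II chains form the peptide-binding pair on the cell surface, I-A from H2-Aa and H2-Ab1. H2-Aa stood at 47.8, 63.9 and 87.7 CPM in MASH OAL livers, 236, 113, 149 and 289 CPM in MASH OA livers, 112, 99.3 and 160 CPM in MASH livers, and 31.1, 31.1, 20.1 and 25.8 CPM in CD livers. Every MASH library lay above every CD library, and MASH OA replicates 1 and 4 were the highest of all. The log2 fold change of H2-Aa in MASH against CD was 2.19 ± 0.31 (SE; edgeR adjusted p = 0.000243).

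H2-Ab1, the beta chain of I-A, stood at 50.7, 68.2 and 87.5 CPM in MASH OAL livers, 247, 121, 160 and 299 CPM in MASH OA livers, 121, 107 and 158 CPM in MASH livers, and 31.4, 36.4, 23.3 and 28.4 CPM in CD livers. Its libraries fell in the same order as those of H2-Aa within MASH OAL, MASH OA and MASH. Its log2 fold change in MASH against CD was 2.11 ± 0.29 (SE; edgeR adjusted p = 0.000181). H2-Eb1, the beta chain of I-E, stood at 36.9, 55.2 and 70.7 CPM in MASH OAL livers, 205, 90.4, 131 and 255 CPM in MASH OA livers, 93.7, 83.9 and 123 CPM in MASH livers, and 22.9, 24.1, 16.2 and 20.05 CPM in CD livers. It rose by a log2 fold change of 2.27 ± 0.32 (SE; edgeR adjusted p = 0.000227) although its partner H2-Ea had no count. H2-Eb2, a second I-E beta gene, was scarce, with group means of 0.280 ± 0.151 CPM in MASH OAL livers, 0.543 ± 0.179 CPM in MASH OA livers, 0.367 ± 0.0664 CPM in MASH livers and 0.0649 ± 0.0385 CPM in CD livers. Its log2 fold change in MASH against CD was 2.47 ± 0.51 (SE; edgeR adjusted p = 0.00262).

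Cd74 encodes the invariant chain, which guides class II molecules to the compartment where they meet peptide. Its level was 105, 146 and 162 CPM in MASH OAL livers, 463, 239, 287 and 595 CPM in MASH OA livers, 253, 214 and 285 CPM in MASH livers, and 78.4, 79.9, 51.5 and 63.9 CPM in CD livers. MASH and CD libraries did not overlap, and the log2 fold change was 1.87 ± 0.28 (SE; edgeR adjusted p = 0.000331). H2-DMa and H2-DMb1 encode the chains of DM, which takes the invariant chain fragment out of the groove. H2-DMa stood at 4.53, 5.45 and 5.46 CPM in MASH OAL livers, 18.3, 12.0, 10.8 and 20.7 CPM in MASH OA livers, 9.69, 10.2 and 11.7 CPM in MASH livers, and 3.02, 3.65, 2.54 and 2.53 CPM in CD livers. The MASH libraries lay close together and clear of CD, with a log2 fold change of 1.85 ± 0.21 for H2-DMa (SE; edgeR adjusted p = 5.06e-05). H2-DMb1 rose by a log2 fold change of 2.31 ± 0.28 (SE; edgeR adjusted p = 8.96e-05), at 16.3 ± 1.15 CPM in MASH livers and 3.28 ± 0.752 CPM in CD livers (SD, n = 3 and 4).

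H2-Oa and H2-Ob encode DO, which holds DM back and is known mainly from B cells and some dendritic cells. H2-Ob stood at 1.22, 1.35 and 1.88 CPM in MASH OAL livers, 3.01, 1.70, 1.90 and 2.17 CPM in MASH OA livers, 1.84, 1.08 and 2.44 CPM in MASH livers, and 0.921, 1.01, 0.730 and 1.03 CPM in CD livers. The lowest MASH library lay just above the highest CD library. Its log2 fold change of 0.96 ± 0.29 passed the test (SE; edgeR adjusted p = 0.0202), but not without CD replicate 3 (adjusted p = 0.0569) or without MASH replicate 4 (adjusted p = 0.122). H2-DMb2, under 5 CPM, also rose. H2-Oa was the tested class II member that was not called, with a log2 fold change of 1.06 ± 0.41 (SE; edgeR adjusted p = 0.0585), at 0.426 ± 0.215 CPM in MASH livers and 0.204 ± 0.0220 CPM in CD livers (SD, n = 3 and 4). Ciita, the class II activator, stood at 4.10, 4.62 and 4.65 CPM in MASH OAL livers, 19.0, 10.8, 10.6 and 21.2 CPM in MASH OA livers, 7.58, 6.54 and 10.99 CPM in MASH livers, and 1.41, 2.28, 0.957 and 1.47 CPM in CD livers. The groups MASH and CD were again apart, and Ciita rose by a log2 fold change of 2.46 ± 0.31 (SE; edgeR adjusted p = 0.000101).

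**Figure D1:**
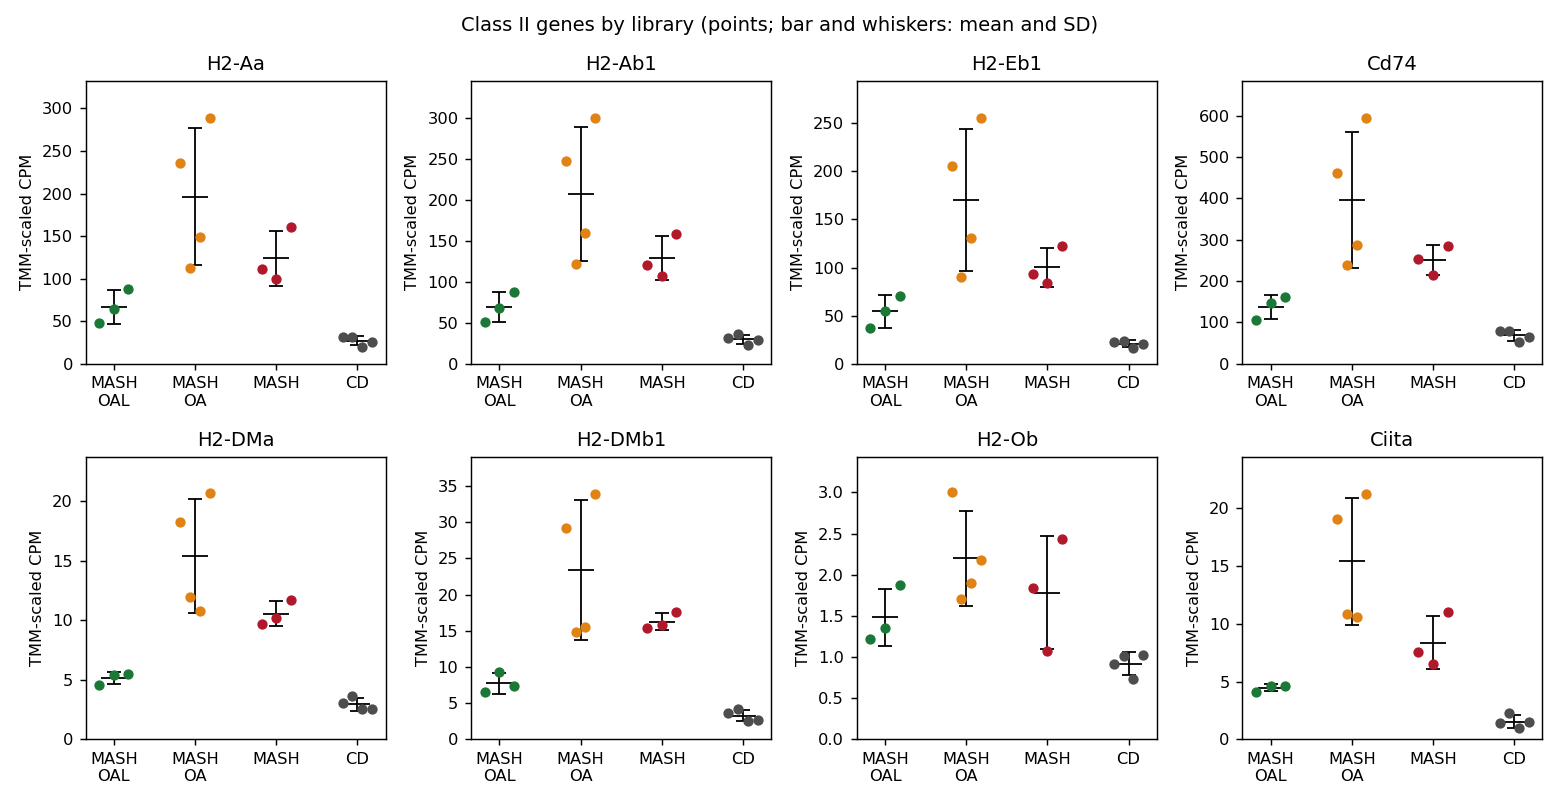
Level of 8 class II genes in each library (vertical axis, TMM-scaled CPM) by group (horizontal axis); points are libraries, the bar and whiskers the mean and SD of 3 or 4 libraries. H2-Aa reached 236 and 289 CPM in MASH OA replicates 1 and 4, and the 4 CD libraries lay at 20.1 to 31.1 CPM.

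Class I was uneven. H2-K1 and H2-D1 encode the classical heavy chains that show peptide to most CD8 T cells. H2-K1 stood at 1653, 1504 and 1395 CPM in MASH OAL livers, 1470, 1700, 1431 and 1834 CPM in MASH OA livers, 1681, 1526 and 1434 CPM in MASH livers, and 1375, 1559, 1361 and 1463 CPM in CD livers. All 4 groups overlapped, and the log2 fold change in MASH against CD was 0.10 (95% interval -0.14 to 0.34; edgeR adjusted p = 0.490). H2-D1 stood at 944, 782 and 722 CPM in MASH OAL livers, 958, 1075, 996 and 1307 CPM in MASH OA livers, 1028, 1025 and 857 CPM in MASH livers, and 688, 794, 620 and 638 CPM in CD livers. MASH and CD did not overlap, and H2-D1 rose by a log2 fold change of 0.50 ± 0.14 (SE; edgeR adjusted p = 0.0118). B2m had a log2 fold change of 0.12 (95% interval -0.13 to 0.37; edgeR adjusted p = 0.436), with 879 ± 47.8 CPM in MASH livers and 808 ± 91.2 CPM in CD livers (SD, n = 3 and 4). H2-Q10 had one of 0.01 (95% interval -0.24 to 0.25; edgeR adjusted p = 0.974), with 2260 ± 52.9 CPM in MASH livers and 2251 ± 211 CPM in CD livers (SD, n = 3 and 4).

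Among the members grouped by symbol as non-classical heavy chains 11 of 15 tested rose in MASH against CD. Of these 15, GENCODE M21 labels H2-T-ps as a pseudogene and H2-Q5, H2-T10 and H2-Bl as polymorphic pseudogenes, and all but H2-Bl rose. The largest rise was that of H2-Q1, with 13.98, 35.6 and 45.6 CPM in MASH OAL livers, 38.3, 40.2, 49.8 and 42.9 CPM in MASH OA livers, 35.2, 43.5 and 58.2 CPM in MASH livers, and 0.949, 2.08, 2.22 and 4.09 CPM in CD livers. Each library on the MASH diet lay above each CD library, and MASH OAL replicate 1 was the lowest of them. The log2 fold change of H2-Q1 in MASH against CD was 4.29 ± 0.43, a 19.6-fold rise (SE; edgeR adjusted p = 3.16e-05). H2-M2 stood at 0.559, 0.908 and 2.21 CPM in MASH OAL livers, 6.30, 2.39, 4.12 and 5.39 CPM in MASH OA livers, 1.57, 1.19 and 3.85 CPM in MASH livers, and 0.0575, 0.178, 0.252 and 0.265 CPM in CD livers. It was scarce in CD livers and rose by a log2 fold change of 3.52 ± 0.61 (SE; edgeR adjusted p = 0.000943).

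H2-M3, which presents formylated peptides such as those of bacteria and mitochondria, had 6.29 ± 0.502 CPM in MASH livers and 2.85 ± 0.433 CPM in CD livers (SD, n = 3 and 4), a log2 fold change of 1.14 ± 0.18 (SE; edgeR adjusted p = 0.000406). H2-Q4 had 75.9 ± 12.2 CPM in MASH livers and 44.9 ± 5.03 CPM in CD livers, a log2 fold change of 0.76 ± 0.13 (SE; edgeR adjusted p = 0.000626). H2-T22, whose product is bound by some gamma-delta T cells, rose by a log2 fold change of 0.39 ± 0.09 (SE; edgeR adjusted p = 0.00606). The log2 fold changes of H2-T10, H2-T24, H2-Q5 and H2-Q6 lay between 0.73 and 0.85, and all 4 were called. H2-T23, the gene of Qa-1, which natural killer cells read through an inhibitory receptor, had a log2 fold change of 0.15 (95% interval -0.06 to 0.36) and was not called. Nor was H2-Q7, at 0.29 (95% interval -0.13 to 0.71). Of the non-classical members under 5 CPM, H2-T-ps and H2-Q2 also rose and H2-Bl was not called.

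The deposited values of many class I genes are fractional, a form that arises when a read is shared out among several genes. Fractions appeared in 13 or 14 libraries for 13 of the 25 tested class I members, H2-K1, H2-D1, H2-Q1, H2-Q10 and H2-T23 among them, and for 2 of the 11 tested class II members, H2-DMb1 and H2-DMb2. The split of reads between such genes is uncertain, while H2-M2, H2-M3, Tap1, Ciita, Cd74 and the class II chains had at most 1 library with a fraction. Exons of Tap1 and Psmb9 overlap head to head by 212 bases on opposite strands, and reads there cannot be told apart if the counting ignored strand, which the sources used here do not say.

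Transcripts of genes that supply peptides to class I rose in part. Tap1, a subunit of the peptide transporter, stood at 33.4, 33.97 and 34.8 CPM in MASH OAL livers, 59.9, 55.6, 46.2 and 70.0 CPM in MASH OA livers, 47.5, 43.7 and 47.2 CPM in MASH livers, and 23.7, 20.4, 20.2 and 20.5 CPM in CD livers. The 3 MASH OAL libraries lay close to each other, above CD and below all other libraries on the MASH diet. Tap1 rose by a log2 fold change of 1.12 ± 0.11 in MASH against CD (SE; edgeR adjusted p = 1.80e-05). Psmb9, an inducible catalytic subunit that swaps for Psmb6 in the immunoproteasome, stood at 17.4, 18.7 and 18.2 CPM in MASH OAL livers, 30.4, 26.8, 21.8 and 32.5 CPM in MASH OA livers, 19.2, 18.5 and 24.7 CPM in MASH livers, and 9.72, 10.1, 8.43 and 11.2 CPM in CD livers. MASH and CD were apart, with a log2 fold change of 1.08 ± 0.14 for Psmb9 (SE; edgeR adjusted p = 0.000104). Tap2, the partner of Tap1, rose by 0.72 ± 0.09 on the log2 scale (SE; edgeR adjusted p = 0.000117). Psmb8, which swaps for Psmb5, rose by 0.64 ± 0.16 (SE; edgeR adjusted p = 0.00681), and Tapbp (tapasin), which holds class I molecules at the transporter, by 0.42 ± 0.09 (SE; edgeR adjusted p = 0.00407). Psmb10, which swaps for Psmb7, was not called at 0.34 (95% interval 0.04 to 0.65; edgeR adjusted p = 0.0760). Nlrc5 stood at 46.1, 35.4 and 35.9 CPM in MASH livers and 39.7, 37.0, 37.6 and 33.9 CPM in CD livers, with overlapping groups and a log2 fold change of 0.08 (95% interval -0.19 to 0.35; edgeR adjusted p = 0.654).

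Of the standard proteasome subunits that the inducible ones replace, 2 of 3 fell in MASH against CD and 0 rose, beside 15.1% of all tested genes called lower. Psmb6 fell by 0.30 ± 0.09 on the log2 scale, to 95.9 ± 11.4 CPM in MASH livers, against 118 ± 5.26 CPM in CD livers (SE for the change, SD for the levels; edgeR adjusted p = 0.0220). Psmb7 fell by 0.27 ± 0.08, to 143 ± 6.89 CPM in MASH livers, against 172 ± 5.34 CPM in CD livers (edgeR adjusted p = 0.0182). The 2 subunits therefore went the other way from Psmb8 and Psmb9, and Psmb5 was not called.

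**Figure D2:**
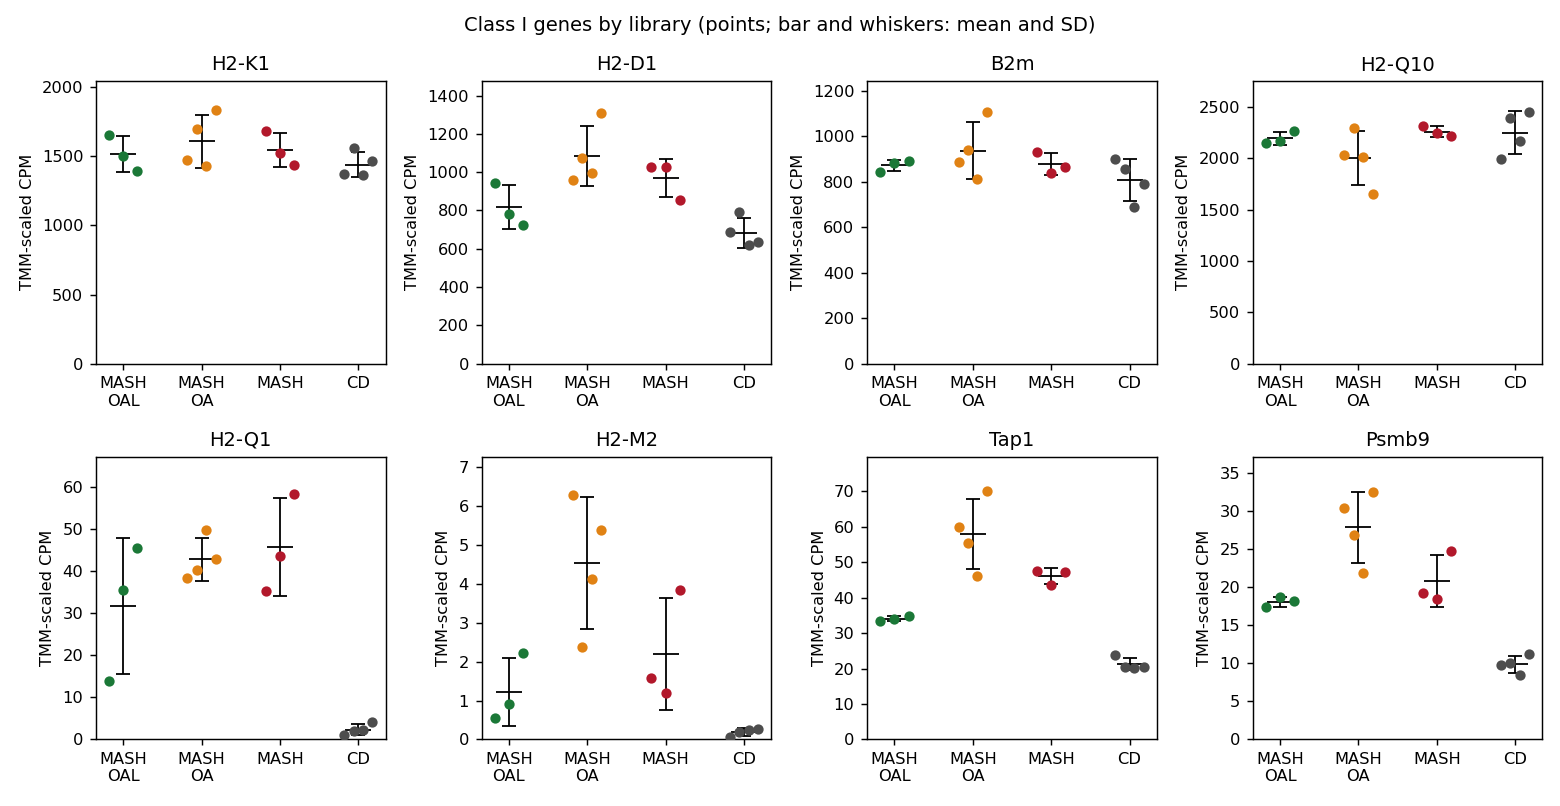
Level of 8 class I genes in each library (vertical axis, TMM-scaled CPM) by group (horizontal axis); points are libraries, the bar and whiskers the mean and SD of 3 or 4 libraries. H2-K1, B2m and H2-Q10 overlap between groups, while H2-Q1 lies at 0.949 to 4.09 CPM in CD livers and at 13.98 CPM or more in the other libraries.

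Neighbours along chromosome 17 differed in size of change. Within the class II region the log2 fold changes in MASH against CD were 2.11 to 2.47 for the class II chains and 0.64 to 1.12 for the 4 class I processing genes that lie between H2-DMb1 and H2-Ob. The class II genes H2-Ob at 0.96, H2-Oa at 1.06 and H2-DMb2 at 1.26 lay in or near the range of these 4. H2-K1, on the other side of the class II region from H2-D1, stood at 0.10, and H2-D1 at 0.50. In the H2-Q cluster the values ran from 4.29 at H2-Q1 to 0.01 at H2-Q10.

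**Figure D3:**
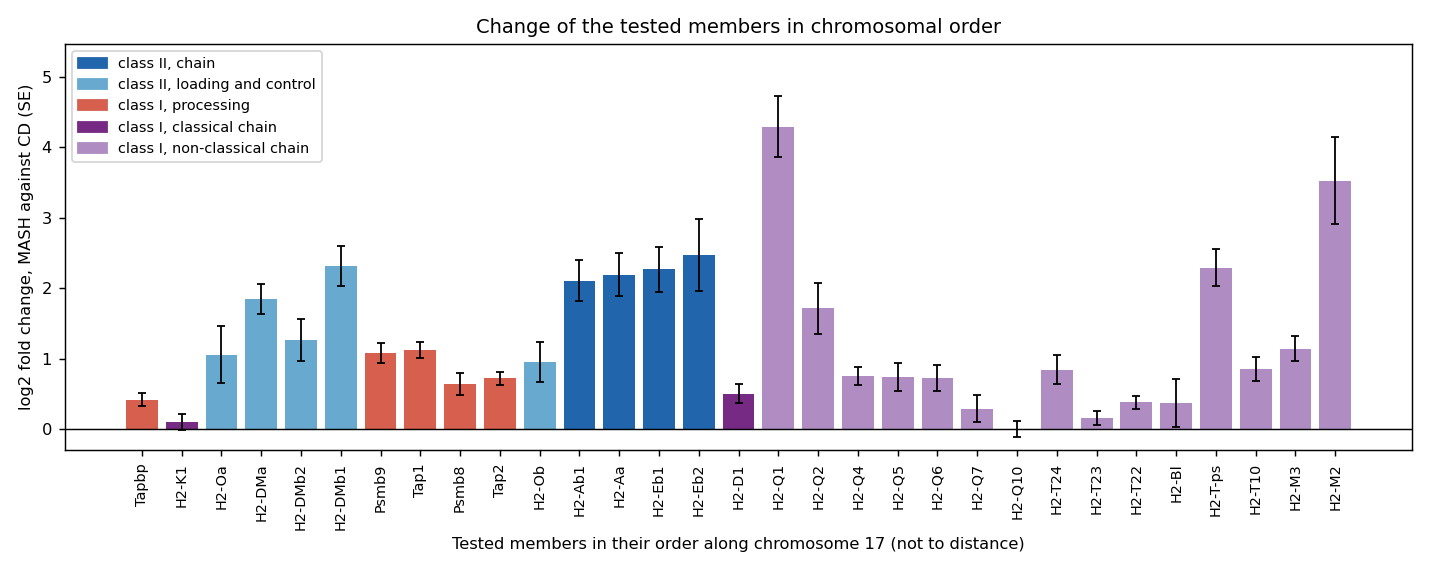
Log2 fold change in MASH against CD (bars, vertical axis; whiskers are the SE) of the 31 tested members of chromosome 17, in their order along the chromosome and not to distance (horizontal axis), coloured by class and role. The bars of H2-Q1 and H2-M2 are the tallest at 4.29 and 3.52, and that of H2-Q10 stands at 0.01.

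Promoter sequence was available from RefSeq (GRCm38.p6) for 37 members, 26 of them tested. Shown are the 250 bases before the transcription start, 5′ to 3′ on the gene's strand, of a pair of class II chains that rose, of H2-Q4, a class I gene that rose, and of H2-K1, H2-Q10 and B2m, which did not pass the test in MASH against CD. Capitals mark matches, on either strand, to 4 motifs: the Y box CCAAT (which on the other strand reads as ATTGG), bound by NF-Y, the X box core AGNNACNGA, bound by the RFX complex that works with Ciita, the interferon-stimulated response element, and the NF-kB motif GGGANTNCC.
H2-Aa (chr17:34287824-34288073, minus strand): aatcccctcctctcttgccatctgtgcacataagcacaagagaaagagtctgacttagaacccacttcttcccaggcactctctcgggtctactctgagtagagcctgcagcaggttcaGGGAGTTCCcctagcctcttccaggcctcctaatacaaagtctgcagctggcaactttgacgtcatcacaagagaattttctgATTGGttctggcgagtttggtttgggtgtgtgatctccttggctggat
H2-Eb1 (chr17:34305617-34305866, plus strand): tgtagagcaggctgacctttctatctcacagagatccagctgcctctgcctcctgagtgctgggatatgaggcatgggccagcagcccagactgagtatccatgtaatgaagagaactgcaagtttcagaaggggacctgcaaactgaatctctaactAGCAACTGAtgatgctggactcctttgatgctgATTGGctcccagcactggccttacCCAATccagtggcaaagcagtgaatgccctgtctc
H2-Q4 (chr17:35379367-35379616, plus strand): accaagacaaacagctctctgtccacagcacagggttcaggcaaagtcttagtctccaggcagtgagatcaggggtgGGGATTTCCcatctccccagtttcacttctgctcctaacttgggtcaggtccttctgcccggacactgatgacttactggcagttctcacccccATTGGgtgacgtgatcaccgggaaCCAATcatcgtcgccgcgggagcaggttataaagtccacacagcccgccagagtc
H2-K1 (chr17:34000348-34000597, minus strand): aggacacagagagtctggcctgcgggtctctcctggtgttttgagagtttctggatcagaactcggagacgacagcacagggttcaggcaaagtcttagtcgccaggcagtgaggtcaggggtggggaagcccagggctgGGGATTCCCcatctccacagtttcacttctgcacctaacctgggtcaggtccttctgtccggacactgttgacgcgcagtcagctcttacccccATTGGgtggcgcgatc
H2-Q10 (chr17:35469839-35470088, plus strand): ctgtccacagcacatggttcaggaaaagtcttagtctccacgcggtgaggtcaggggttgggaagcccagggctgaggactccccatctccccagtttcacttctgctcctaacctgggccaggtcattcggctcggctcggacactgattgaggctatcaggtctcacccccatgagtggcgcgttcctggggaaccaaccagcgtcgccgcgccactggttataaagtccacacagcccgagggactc
B2m (chr2:122147437-122147686, plus strand): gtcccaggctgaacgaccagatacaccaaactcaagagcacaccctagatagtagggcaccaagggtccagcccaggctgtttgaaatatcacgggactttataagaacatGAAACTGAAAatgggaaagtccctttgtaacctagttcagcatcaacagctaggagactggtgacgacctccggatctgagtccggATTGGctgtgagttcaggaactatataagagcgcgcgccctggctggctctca
The Y box was matched in 7 of 8 class II windows and in 15 of 18 class I windows of tested members, beside 34.5% of 27025 promoters. The X box core was matched in 4 of 8 class II windows and 2 of 18 class I windows, beside 14.5% of promoters. The NF-kB motif was matched in 1 of 8 class II windows and 6 of 18 class I windows, beside 3.34%, and the interferon element in 0 of 8 and 3 of 18, beside 3.04%. H2-Eb1 has an X box core 92 bases and Y boxes 59 and 35 bases before its start, counted to the first printed letter of the match. The window of H2-Q10 holds none of the 4 motifs. The windows of H2-K1 and H2-Q4 both hold an NF-kB match and a Y box. These matches describe letters only, with no test.

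The balance of the classes moved with the groups. The summed RPKM of H2-Aa, H2-Ab1 and H2-Eb1 per 100 of H2-K1 and H2-D1 was 5.53, 8.80 and 12.4 in MASH OAL livers, 30.2, 12.4, 19.3 and 28.6 in MASH OA livers, 12.8, 12.1 and 20.4 in MASH livers, and 4.39, 4.15, 3.23 and 3.78 in CD livers. Each MASH library lay above each CD library. MASH OAL replicate 4 met MASH OA replicate 2 and lay above MASH replicate 3, so MASH OAL overlapped both groups. The class I sum in this ratio varied far less, at 755 to 929 RPKM in MASH OAL livers, 872 to 1131 RPKM in MASH OA livers, 820 to 971 RPKM in MASH livers and 704 to 839 RPKM in CD livers. The ratio was made from the members and carries no test.

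Markers of cells that carry class II were counted in the same libraries. The 6 macrophage markers (Adgre1, Cd68, Csf1r, Lyz2, Cd14 and Mertk) summed to 301 to 318 CPM in MASH OAL livers, 494 to 713 CPM in MASH OA livers, 425 to 475 CPM in MASH livers and 150 to 223 CPM in CD livers. In MASH against CD 5 of the 6 rose, with a median log2 fold change of 1.12, and in MASH OAL against MASH OA 5 of the 6 fell, with a median of -1.08. Of all tested genes 20.4% were called higher in MASH against CD and 8.89% lower in MASH OAL against MASH OA. In that second comparison 0 of the 6 were called with groups from the tags (median -1.02) and 3 without both libraries with disagreeing tags (median -1.19). The whole table had 0 and 487 genes called under these settings, against 2544 with the titles. The 5 markers of recruited macrophages (Itgax, Trem2, Gpnmb, Cd9 and Ccr2) summed to 46.6 to 114 CPM in MASH OAL livers, 109 to 219 CPM in MASH OA livers, 99.8 to 180 CPM in MASH livers and 11.5 to 22.9 CPM in CD livers. All 5 rose in MASH against CD, and 4 fell in MASH OAL against MASH OA, where 0 were called with groups from the tags and 1 without both libraries. The 5 markers of Kupffer cells, the resident liver macrophages (Clec4f, Timd4, Vsig4, Cd5l and Marco), summed to 113 to 486 CPM in MASH OAL livers, 352 to 716 CPM in MASH OA livers, 408 to 661 CPM in MASH livers and 230 to 357 CPM in CD livers. Of these 1 rose in MASH against CD, where the list had a median log2 fold change of 0.45, and 0 were called in MASH OAL against MASH OA. The 7 dendritic cell markers summed to 15.5 to 17.9 CPM in MASH OAL livers, 21.1 to 27.4 CPM in MASH OA livers, 16.9 to 19.9 CPM in MASH livers and 13.1 to 15.1 CPM in CD livers, with 3 called higher in MASH against CD and 0 called in MASH OAL against MASH OA. The 6 B cell markers summed to 3.63 to 5.16 CPM in MASH OAL livers, 3.95 to 7.54 CPM in MASH OA livers, 4.07 to 6.35 CPM in MASH livers and 1.75 to 4.92 CPM in CD livers, with 1 called higher in MASH against CD and 0 called in MASH OAL against MASH OA. The counts called higher in MASH against CD, 1 of 5 Kupffer cell and 1 of 6 B cell markers, lie near the 20.4% of all tested genes. No marker of these 5 lists was at 0 in any library, and the part of these cells in the changes of the members was not tested.

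**Figure D4:**
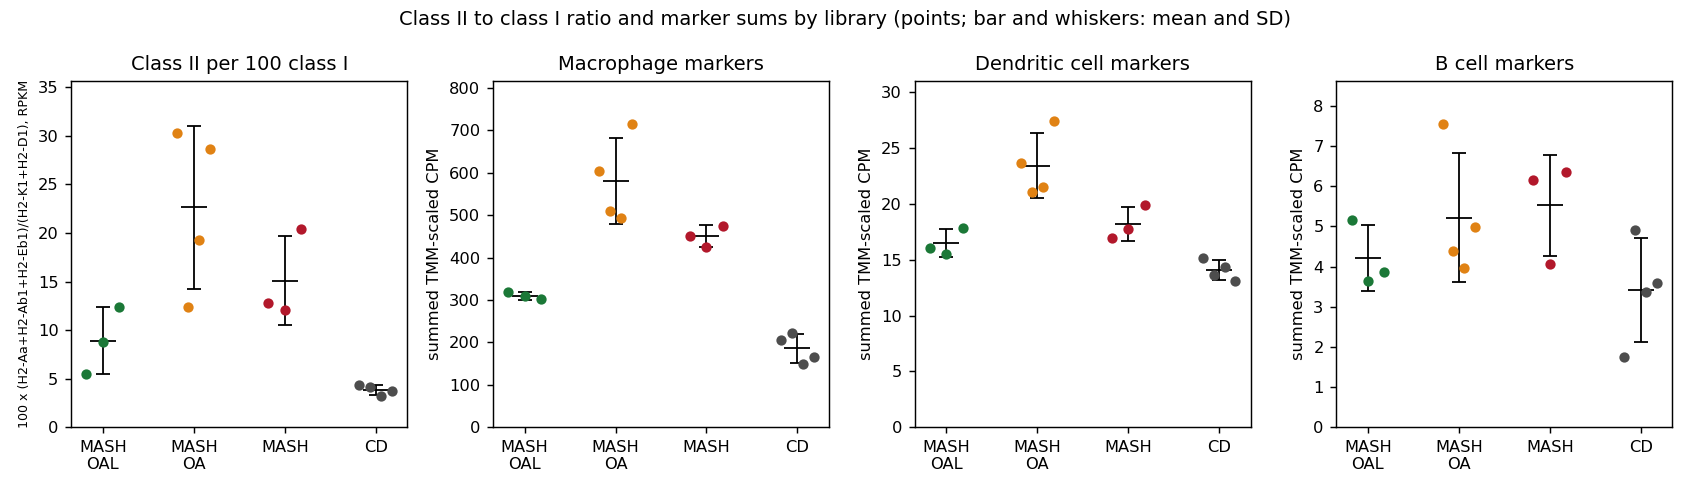
Class II per 100 class I in RPKM (left) and the summed TMM-scaled CPM of macrophage, dendritic cell and B cell markers, by library (points) and group (horizontal axis); bar and whiskers are the mean and SD. The ratio lies at 3.23 to 4.39 in CD livers and at 5.53 to 30.2 in the other libraries, and the macrophage sum at 150 to 223 CPM in CD livers and at 301 to 713 CPM in the others.

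Next, MASH OA was set against MASH, which asks what C18:1 did on the MASH diet. No member passed the test among 36, as no gene of the whole table did (0% called). At an unadjusted p under 0.05 stood 9 members (edgeR), and DESeq2 and limma voom with sample weights likewise called 0 members. The log2 fold change was positive for 33 of the 36, with a median of 0.62 over class II and 0.20 over class I, beside 0.00 over all tested genes. With groups from the tags, which put MASH OA replicate 1 in MASH, 26 of the 36 were positive, the medians were 0.02 over class II and 0.12 over class I, 0 members had an unadjusted p under 0.05, and Ciita had 0.08. Without both libraries with disagreeing tags 34 were positive, with medians of 0.57 and 0.22 and 4 members at an unadjusted p under 0.05. With the titles Ciita had 0.88 (95% interval 0.25 to 1.5) and H2-Eb1 0.77 (95% interval 0.08 to 1.45), each with an adjusted p of 0.770 (edgeR). The MASH OA libraries were spread widely: replicates 1 and 4 had 205 and 255 CPM of H2-Eb1, replicates 2 and 3 had 90.4 and 131 CPM, and the MASH libraries 83.9 to 123 CPM.

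MASH OAL against MASH asks the same of C18:1-leucine. Here too 0 members passed the test by edgeR, beside 0.0702% of all tested genes, while 13 had an unadjusted p under 0.05. For 13 members every MASH OAL library lay below every MASH library, beside 12% of all tested genes. The log2 fold change was positive for 3 of the 36, with a median of -0.88 over class II and -0.21 over class I, beside -0.01 over all tested genes. H2-DMa came nearest among the named genes, with -1.04 (95% interval -1.52 to -0.55; edgeR adjusted p = 0.0710). Its 3 MASH OAL libraries, at 4.53 to 5.46 CPM, lay below the 3 MASH libraries, at 9.69 to 11.7 CPM. DESeq2 called 6 members lower (H2-DMa, H2-DMb1, H2-Ab1, Cd74, Tap1 and H2-T-ps), limma voom 3, and edgeR on the 2 groups alone 2. These methods called 945, 601 and 51 genes of the whole table, in that order, against 11 in the main fit. H2-Q1 had -0.53 (95% interval -1.40 to 0.35), and H2-K1 -0.03 (95% interval -0.29 to 0.23).

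MASH OAL against MASH OA compares C18:1 with and without the joined leucine, at the same time, with doses not given. Under the groups of the titles, 16 of 36 members fell in MASH OAL livers and 0 rose, beside 8.89% of all tested genes called lower, 7.34% called higher and 16.2% in either direction. For 21 members every MASH OAL library lay below every MASH OA library, beside 14.2% of all tested genes. Of class II 7 of 11 fell (median log2 fold change -1.56), and of class I 9 of 25 (median -0.47), beside -0.02 over all tested genes. Genes of other cells moved in this comparison too: with the titles 4 of 4 tested red cell genes were higher (median log2 fold change 1.40), 3 of 6 hepatocyte markers were higher (median 0.62) and 3 of 7 T and NK cell markers were lower (median -1.54). None of these 3 lists had a call with groups from the tags or without both libraries with disagreeing tags, and their part in the change of the members was not tested. The 16 members called lower were all among the 27 that rose in MASH against CD, a count of calls from comparisons that share no libraries but share 1 fit. The same overlap was not counted over all tested genes, so it is not shown to be particular to the members. The chains fell by about the same amount: H2-Eb1 by 1.65 ± 0.33, H2-Ab1 by 1.59 ± 0.30 and H2-Aa by 1.56 ± 0.32 on the log2 scale (SE; edgeR adjusted p = 0.00813, 0.00662 and 0.0092). Each of the 3 MASH OAL libraries lay below each of the 4 MASH OA libraries for these chains.

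In the class II control and loading genes, Ciita fell by 1.79 ± 0.30 (SE; edgeR adjusted p = 0.00452), to 4.10 to 4.65 CPM in MASH OAL livers, against 10.6 to 21.2 CPM in MASH OA livers. H2-DMb1 fell by 1.60 ± 0.28, H2-DMa by 1.59 ± 0.22 and Cd74 by 1.53 ± 0.29 on the log2 scale (SE; edgeR adjusted p = 0.00525, 0.00299 and 0.00700). H2-Eb2, H2-Oa, H2-Ob and H2-DMb2 were not called. In class I, Tap1 fell by 0.77 ± 0.11 (SE; edgeR adjusted p = 0.00329), to 33.4 to 34.8 CPM in MASH OAL livers, against 46.2 to 70.0 CPM in MASH OA livers. Tap2, Psmb9, Psmb8, Tapbp, H2-Q4 and H2-M3 fell by 0.44 to 0.64 on the log2 scale, and H2-M2 by 1.89 ± 0.53 (SE; edgeR adjusted p = 0.0301). H2-T-ps fell too.

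The compounds were not told apart by several class I genes. H2-K1 differed by -0.08 (95% interval -0.33 to 0.16), B2m by -0.10 (95% interval -0.35 to 0.15), H2-Q10 by 0.13 (95% interval -0.11 to 0.38) and Nlrc5 by -0.22 (95% interval -0.49 to 0.05) on the log2 scale. H2-Q1, which had the largest rise in MASH against CD, differed by -0.43 (95% interval -1.26 to 0.39; edgeR adjusted p = 0.464), with 13.98 to 45.6 CPM in MASH OAL livers and 38.3 to 49.8 CPM in MASH OA livers. H2-D1 had -0.41 (95% interval -0.71 to -0.11; edgeR adjusted p = 0.0581). Its MASH OAL libraries, at 722 to 944 CPM, lay below its MASH OA libraries, at 958 to 1307 CPM.

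The number of members called in MASH OAL against MASH OA depends on following the titles. With groups from the treatment tags 0 members were called (17 at an unadjusted p under 0.05) and 0 genes of the whole table, against 2544 with the titles. Without both libraries whose tags disagree 487 genes were called, 5 members among them, all lower: Ciita, Tap1, Tap2, H2-DMa and Tapbp. Without these 2 libraries H2-Aa had -1.27 (edgeR adjusted p = 0.0887), and with the tags -0.98 (edgeR adjusted p = 0.494). Leaving out 1 library at a time kept 11 of the 16 calls each time. The whole table moved as well in these runs, from 756 genes called without MASH OAL replicate 2 to 3043 without MASH OA replicate 2. Tapbp and H2-Q4 lost theirs without MASH OAL replicate 2, and H2-M3 and H2-M2 without MASH OAL replicate 1 or 2 or MASH OA replicate 1 or 4 (H2-M3 also without MASH OAL replicate 4). Psmb8 lost its call without any of 8 libraries: MASH OAL replicates 1, 2 and 4, MASH OA replicates 1, 2 and 4, MASH replicate 2 and CD replicate 4.

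**Figure D5:**
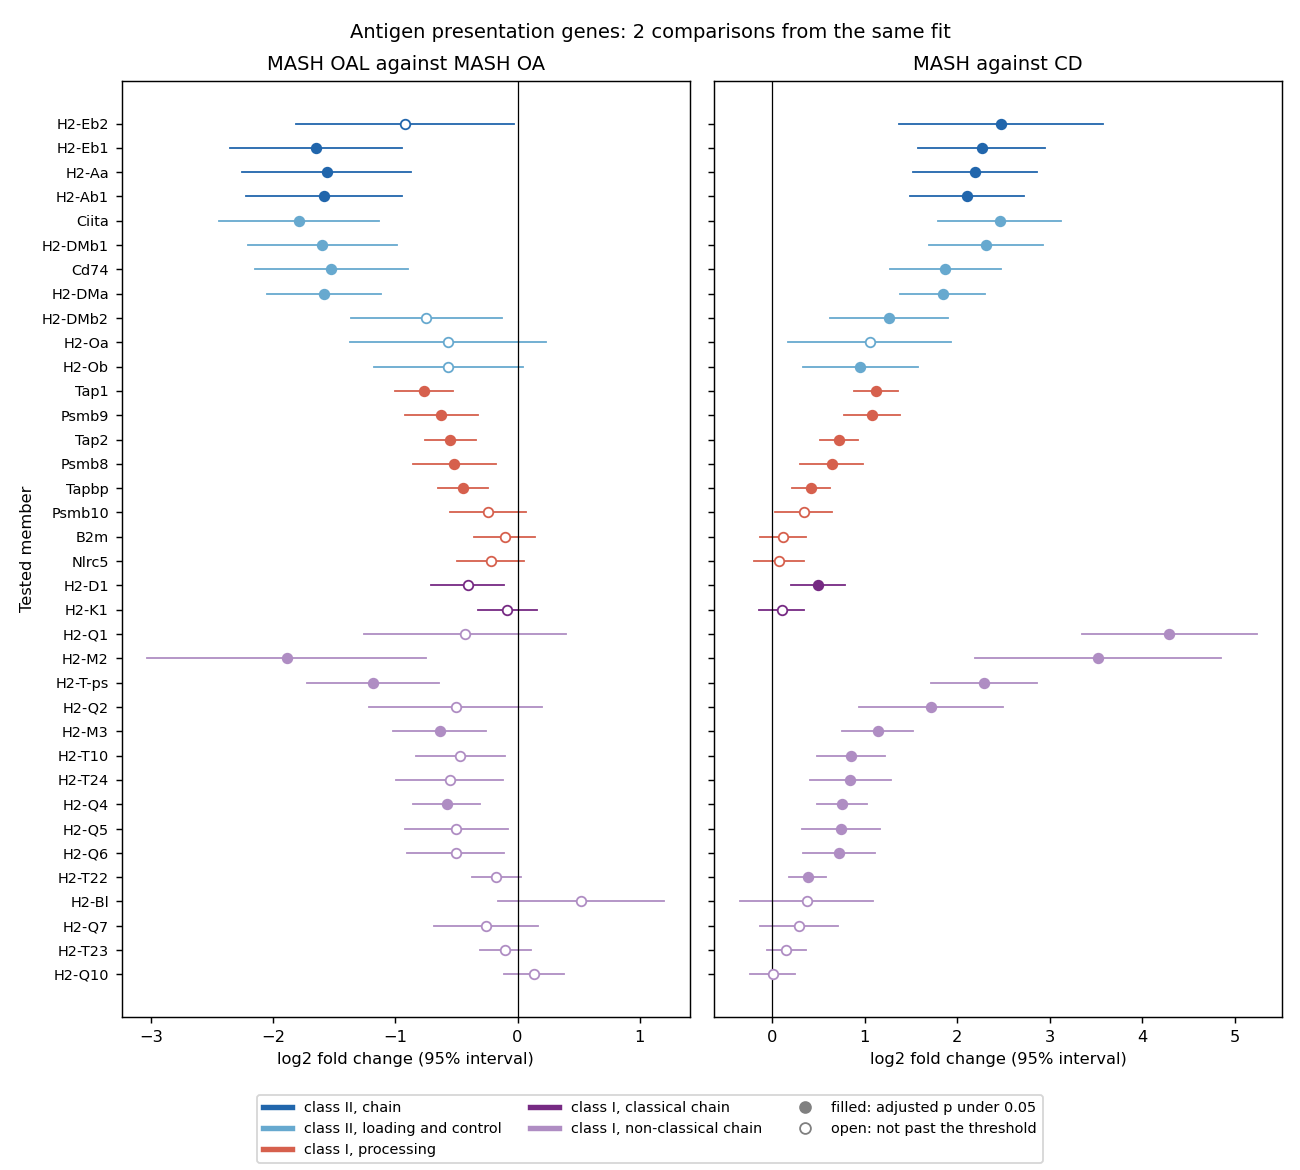
Log2 fold change with its 95% interval (horizontal axes) of the 36 tested members (rows, by class) in MASH OAL against MASH OA (left) and MASH against CD (right); filled points have an adjusted p under 0.05. H2-Aa stands at -1.56 on the left and 2.19 on the right, H2-K1 at -0.08 and 0.10, and H2-Q1 at -0.43 and 4.29.

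Each compound's group was also set against CD. Of the members, 19 of 36 were higher and 0 lower in MASH OAL livers than in CD livers, beside 10.2% of all tested genes called higher, 4.34% called lower and 14.5% in either direction. Of class II 8 of 11 were higher, with a median log2 fold change of 1.20, and of class I 11 of 25, with a median of 0.46, beside 0.01 over all tested genes. H2-Aa stood 2.46-fold and Ciita 2.92-fold above CD (edgeR adjusted p = 0.0165 and 0.00712), and H2-Q1 13.6-fold (edgeR adjusted p = 0.000459). Tap1 had a log2 fold change of 0.68 ± 0.11 and Psmb9 of 0.88 ± 0.14 (SE; edgeR adjusted p = 0.00211 and 0.00188). With the tags as groups 3 were called (H2-Q1, H2-Q2 and Psmb9), and without both libraries with disagreeing tags there were 15. Without MASH OAL replicate 4 there were 8, without MASH OAL replicate 2 there were 11, and without CD replicate 3 there were 12. The whole table had 653, 1551, 976, 1550 and 1338 genes called in these runs, in that order, against 2276 in the main fit. Both settings on the tags leave MASH OAL with replicates 2 and 4 only. The medians under each were 1.35 over class II and 0.38 over class I. In MASH OA against CD 29 of 36 members were higher and 0 lower, beside 27.8% of all tested genes called higher, 24.9% called lower and 52.6% in either direction, with all 11 tested class II members among them. H2-Aa stood 7.27-fold and Ciita 10.1-fold above CD there (edgeR adjusted p = 1.26e-05 and 3.43e-06). These comparisons share the CD libraries, and MASH against CD shares them too.

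Other genes of the pathways were counted by list. Of 12 tested class II helpers 4 rose in MASH against CD and 0 fell, beside 20.4% of all tested genes called higher and 15.1% called lower, and the median log2 fold change over the list was 0.08. The 4 are the proteases Ctss, which trims the invariant chain, and Lgmn, the thiol reductase Ifi30 and the ubiquitin ligase Marchf1, which takes class II off the surface. Ctss had 74.8 ± 4.05 CPM in MASH OAL livers, 165 ± 45.3 CPM in MASH OA livers, 125 ± 7.22 CPM in MASH livers and 36.5 ± 9.45 CPM in CD livers (SD, n = 3, 4, 3 and 4). It rose by a log2 fold change of 1.78 ± 0.20 in MASH against CD and fell by 1.15 ± 0.21 in MASH OAL against MASH OA (SE; edgeR adjusted p = 5.63e-05 and 0.00595). All 4 fell in MASH OAL against MASH OA with the titles, beside 8.89% of all tested genes. With groups from the tags 0 of them were called, and without both libraries with disagreeing tags Lgmn and Ifi30 were. The RFX, NF-Y and Creb1 genes, which bind class II promoters together with Ciita, were not called in MASH against CD.

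Of 9 tested genes of the interferon-gamma axis 6 rose in MASH against CD and 0 fell, beside 20.4% of all tested genes called higher, at a median of 0.59 on the log2 scale. Irf8, a factor of macrophages and dendritic cells, had a log2 fold change of 1.35 ± 0.17 in MASH against CD and -0.99 ± 0.17 in MASH OAL against MASH OA (SE; edgeR adjusted p = 8.50e-05 and 0.00452). The receptor chains Ifngr1 and Ifngr2 rose in MASH against CD as well, by 0.68 ± 0.11 and 0.59 ± 0.08 (SE). Of the 9, 5 fell and 0 rose in MASH OAL against MASH OA with the titles, beside 8.89% of all tested genes called lower. With groups from the tags 0 of the 9 were called, and Irf8 was called without both libraries with disagreeing tags.

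Co-stimulation genes, which give T cells their second signal, rose in 5 of 5 tested in MASH against CD, beside 20.4% of all tested genes, with a median log2 fold change of 1.41. Cd86 had 7.91 ± 1.03 CPM in MASH livers and 3.22 ± 0.526 CPM in CD livers, and the inhibitory ligand Cd274 (PD-L1) 7.23 ± 1.34 CPM in MASH livers and 2.28 ± 0.586 CPM in CD livers (SD, n = 3 and 4). Of the 5, 4 fell in MASH OAL against MASH OA with the titles, beside 8.89% of all tested genes called lower. Cd274 fell by 1.41 ± 0.32 and Cd86 by 1.05 ± 0.27 on the log2 scale (SE; edgeR adjusted p = 0.0121 and 0.0197). With groups from the tags 0 of the 5 were called, and without both libraries with disagreeing tags Cd274 and Cd86 were. Of 10 tested class I helpers, 3 fell and 1 rose in MASH against CD, beside 15.1% and 20.4% of all tested genes, with a median log2 fold change of -0.15 over the list. The chaperones Canx and Pdia3 fell by 0.51 ± 0.16 and 0.74 ± 0.26, and Cd1d1, which presents lipids to natural killer T cells, by 0.50 ± 0.12 on the log2 scale (SE; edgeR adjusted p = 0.0222, 0.0415 and 0.00791). Mr1, which presents vitamin metabolites to mucosal-associated T cells, rose by 0.75 ± 0.18 (SE; edgeR adjusted p = 0.00519). With the titles Cd1d1 was higher in MASH OAL against MASH OA by 0.41 ± 0.12 (SE; edgeR adjusted p = 0.0362), at 240 ± 28.03 CPM in MASH OAL livers and 181 ± 23.1 CPM in MASH OA livers (SD, n = 3 and 4). It was not called with groups from the tags, at 0.10 (edgeR adjusted p = 0.882), nor without both libraries with disagreeing tags, at 0.25 (edgeR adjusted p = 0.301).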

How the data were processed

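Mouse liver RNA was sequenced in 14 libraries after RNeasy extraction and NEBNext Ultra II library preparation, per the labels' protocols. The authors deposited expected counts per gene; 5.09% to 5.76% of a library's values were fractional, and they were rounded here. HTSeq, DESeq2 1.42.1 and the build GRCm38 are named in the submitters' processing notes, without their roles. The authors' comparison tables were not used, since no key to their group letters is given.

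Genes were kept by filterByExpr (minimum count 10, minimum total 15), and 15674 were fitted by robust quasi-likelihood after TMM scaling (edgeR 4.0.16, R 4.3.3). Values were not corrected for batch, since the labels name none. RPKM used GENCODE M21 exon lengths, with the exons of all transcripts of a gene merged. DESeq2 1.42.0, limma 3.58.1 (voom) and the other alternatives are given in the closing section. The test was checked on simulated data. Members with at least 5 CPM in a group, the regulators, DO, H2-Eb2, H2-M2 and H2-M3, and up to 4 genes of each pathway list with the smallest p in MASH against CD are named with values. The members and lists were chosen with earlier results of these data known. The values of 1 gene of the pathway lists are not reported here. The settings on the disagreeing tags were applied to the marker and pathway lists after seeing the data.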

Additional observations from a re-analysis of the deposited data

Results flagged for a closer look

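In groups of 4 libraries, 5 of 72 sets of values held 1 library far from the other 3 by Dixon's test, where chance gives about 1 in 20. H2-Q5 stood at 10.7 CPM in MASH OA replicate 4, against 6.52 to 7.08 CPM in the other MASH OA livers. H2-Q6 stood at 67.8 CPM in the same library, against 43.4 to 46.9 CPM in the others. H2-T-ps stood at 0.983 CPM in MASH OA replicate 1, against 1.304 to 1.34 CPM in the others. Tap1 stood at 23.7 CPM in CD replicate 1, against 20.2 to 20.5 CPM in the other CD livers. Tap2 stood at 19.9 CPM in CD replicate 3, against 23.1 to 23.3 CPM in the others. No explanation was tested.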

How the results depend on the processing

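The number of members called stayed within 1.5 times in MASH against CD, MASH OA against MASH and MASH OA against CD under each alternative run. In MASH OAL against MASH it was 0, and 6 with DESeq2, 3 with limma voom, 2 with the compared groups alone and 1 without MASH OA replicate 3. It was 16 in MASH OAL against MASH OA, and 0 with groups from the tags and 5 without both libraries with disagreeing tags. Against CD, MASH OAL had 19 members called, and 3 with groups from the tags, beside 2276 and 653 genes of the whole table. Leaving out 1 library gave 26 to 28 members in MASH against CD, 0 in MASH OA against MASH, 0 to 1 in MASH OAL against MASH, 11 to 17 in MASH OAL against MASH OA, 29 to 30 in MASH OA against CD and 8 to 21 in MASH OAL against CD. The whole table had 3811 to 5730, 0, 0 to 61, 756 to 3043, 6953 to 8522 and 976 to 2427 genes called, in that order. In MASH against CD 26 of the 27 calls were kept under every alternative, and in MASH OA against CD 29 of 29. Of the 19 in MASH OAL against CD, 6 were kept when each library was left out, and 3 under every alternative. No member called in a comparison changed direction. The cause of these shifts was not tested. The main fit did not pair libraries by replicate number. Correlations of same-numbered deviations ran from -0.30 to 0.40. Differently numbered libraries were not correlated beside them, so these values do not settle whether the numbers pair libraries. With the replicate block the counts were 28 in MASH against CD, 0 in MASH OA against MASH, 0 in MASH OAL against MASH, 16 in MASH OAL against MASH OA, 29 in MASH OA against CD and 16 in MASH OAL against CD. Beside them 5249, 0, 35, 2306, 7928 and 1851 genes of the whole table were called, in that order. Groups of 3 and 4 libraries, and levels under 1 CPM for H2-Oa, H2-Eb2 and H2-M2 in CD livers, limit the precision.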
